A study of Sus scrofa with 12 samples.

Results

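The 6 genes CCN1, CCN2, AMOTL2, AMOTL1, YAP1 and WWTR1, which belong to the YAP/TAZ branch of the Hippo pathway, were followed in the mRNA of mesenchymal stromal/stem cells (MSCs) grown from pig fat and of the extracellular vesicles (EVs) that these cells released. The genes were chosen by name, from all 29658 entries of the count table that could be used, as the most-read entry of each symbol. Of the 6 genes, 5 had an entry and all 5 passed the filter on low counts, whereas YAP1 was found neither under its symbol nor under the Ensembl identifier paired with it, so its level was not analysed here. The choice was made with EV to MSC differences of these same libraries already known. The differences of the 5 genes are therefore given as a description, with their errors and without a test.

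YAP1 and WWTR1 (also called TAZ) are transcriptional coactivators without a DNA-binding domain of their own, and they act in the nucleus by binding TEAD transcription factors. The Hippo kinases STK3 and STK4 activate LATS1 and LATS2, which phosphorylate YAP and TAZ and keep them in the cytoplasm, and cell spreading, stiff substrates and actin tension favor their entry into the nucleus. CCN1 (CYR61) and CCN2 (CTGF) encode secreted matricellular proteins that bind integrins and heparan sulfate, and they are the most widely used readouts of YAP/TAZ activity in adherent mesenchymal cells. AMOTL1 and AMOTL2 encode angiomotin family scaffolds that bind YAP and TAZ outside the nucleus, and AMOTL2 is itself a YAP/TAZ target.

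Abdominal fat was taken from 3 female domestic pigs, whose labels give an age of 3 months. MSCs were grown in medium with platelet lysate and used at passage 3, and EVs were pelleted from their supernatants by ultracentrifugation, which collects exosomes and microvesicles together. No agent or genetic change set the groups apart. An MSC library (group MSC, 3 libraries) and an EV library (group EV, 3 libraries) came from each pig, so that replicate 1, 2 or 3 is the same pig in both groups. Reads counted on genes ranged from 11332330 to 12276855 in the MSC libraries and from 10429085 to 12151384 in the EV libraries.

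CCN1 (ENSSSCG00000006940, chromosome 4 from 142924366 to 142927632, minus strand, in the susScr3 build that the submitters' processing notes name) was among the most abundant mRNAs of the MSCs and was far lower in EVs. The MSCs of pigs 1, 2 and 3 gave 8963, 12632 and 4940 reads, against 737, 289 and 270 from their EVs. After scaling by the trimmed mean of M-values (TMM), these corresponded to 694, 1209 and 419 CPM (counts scaled to the same library total) in MSCs and 62.2, 22.6 and 27.3 CPM in EVs. The lowest MSC library thus stood well above the highest EV library, and MSC replicate 2 was the highest of all. The means were 774 ± 401 CPM in MSCs and 37.4 ± 21.7 CPM in EVs (SD, n = 3 each), with EVs over MSCs at -4.37 on the log2 scale (standard error, SE, 0.59), a level 20.7-fold higher in MSCs. Values here are shares of a library, so that fewer vesicles holding the transcript and less of it per vesicle cannot be told apart.

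CCN2 (ENSSSCG00000004192, chromosome 1 from 35133813 to 35137139, minus strand) followed CCN1 closely. Its reads numbered 6090, 12893 and 5346 for the MSCs of pigs 1, 2 and 3, against 429, 209 and 238 for their EVs, or 472, 1234 and 453 TMM-normalized CPM in MSCs and 36.2, 16.3 and 24.1 in EVs. Again MSC replicate 2 was highest, EV replicate 1 was the highest of the EV libraries, and the groups were far apart. The means were 720 ± 445 CPM in MSCs and 25.5 ± 10.0 CPM in EVs (SD, n = 3 each), or -4.82 on the log2 scale (SE 0.56), a level 28.2-fold higher in MSCs. Even the smallest count, 209 reads in EV replicate 2, gave 17.2 CPM before TMM scaling with a 95% Wilson interval from 15.0 to 19.7, which covers counting error only. A second entry, named CCN2 itself (from 35134660 to 35137098), lies within the first on the same strand and was listed at 0 reads in all 6 libraries. Whether reads were lost on this overlap was not tested.

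AMOTL2, the angiomotin family member that YAP/TAZ induce, was also lower in EVs, by less than the CCN genes and with little spread among the cells. AMOTL2 (ENSSSCG00000011643, chromosome 13 from 83024710 to 83040145, minus strand) drew 4483, 3218 and 3819 reads from the MSCs of pigs 1, 2 and 3, against 585, 341 and 613 from their EVs. In TMM-normalized CPM this was 347, 308 and 324 in MSCs and 49.4, 26.6 and 62.0 in EVs. The MSC libraries lay close together, the EV libraries did not, and the groups did not overlap. The means were 326 ± 19.7 CPM in MSCs and 46.0 ± 17.9 CPM in EVs (SD, n = 3 each), or -2.83 on the log2 scale (SE 0.35), a level 7.10-fold higher in MSCs.

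AMOTL1, the paralog of AMOTL2, had overlapping levels in both groups. AMOTL1 (ENSSSCG00000014960, chromosome 9 from 30651655 to 30726848, plus strand) drew 610, 326 and 340 reads from the MSCs of pigs 1, 2 and 3, against 394, 465 and 480 from their EVs, which gave 47.2, 31.2 and 28.8 TMM-normalized CPM in MSCs and 33.3, 36.3 and 48.6 in EVs. The ranges of the groups overlapped almost completely. The means were 35.8 ± 10.0 CPM in MSCs and 39.4 ± 8.09 CPM in EVs (SD, n = 3 each), and the difference of 0.14 on the log2 scale (SE 0.29) was smaller than its error.

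WWTR1, the coactivator TAZ, drew the fewest reads of the 5 genes in MSCs and varied most among the EVs relative to its mean. WWTR1 (ENSSSCG00000011704, chromosome 13 from 97749573 to 97893426, minus strand) drew 219, 126 and 175 reads from the MSCs of pigs 1, 2 and 3, against 115, 230 and 413 from their EVs. This was 17.0, 12.1 and 14.8 TMM-normalized CPM in MSCs and 9.71, 18.0 and 41.8 in EVs, so that the EV libraries held both the lowest and the highest value. The means were 14.6 ± 2.46 CPM in MSCs and 23.2 ± 16.7 CPM in EVs (SD, n = 3 each), which put EVs 0.66 above MSCs on the log2 scale (SE 0.51). EV replicate 3 set its sign, since the log2 fold change was -0.08 without that library.

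**Figure D1:**
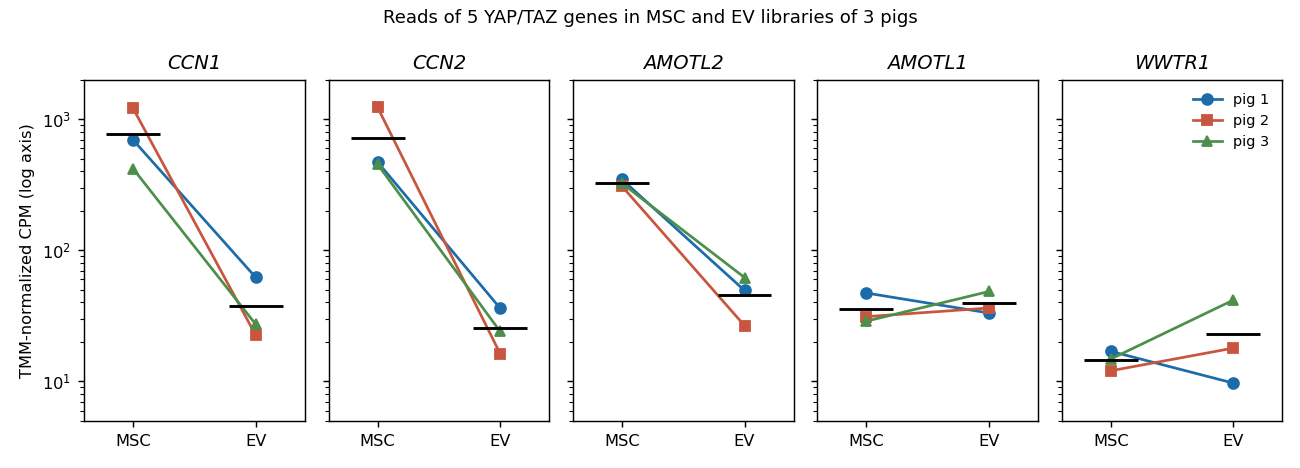
TMM-normalized CPM (log axis) of CCN1, CCN2, AMOTL2, AMOTL1 and WWTR1 in the MSC and EV libraries, with a line joining the libraries of each of the 3 pigs and a black bar at the group mean. CCN1, CCN2 and AMOTL2 are lower in the EVs of every pig, while AMOTL1 and WWTR1 are lower in pig 1 and higher in pigs 2 and 3.

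The 3 transcripts CCN1, CCN2 and AMOTL2 had every EV library below every MSC library, and AMOTL1 and WWTR1 overlapped. Over all 12392 entries tested, 13.6% had every EV library below every MSC library and 14.3% had every EV library above. Since this contrast was known when the genes were chosen, nothing is read from that difference. In the order of log2 fold changes from the lowest, CCN2 stood at position 2, CCN1 at 4 and AMOTL2 at 31 of 12392, while AMOTL1 stood at 7278 and WWTR1 at 10204. Together, the reads of CCN1, CCN2 and AMOTL2 made up 0.166%, 0.234% and 0.124% of the counted reads in the MSCs of pigs 1, 2 and 3, and 0.0168%, 0.00690% and 0.00966% in their EVs.

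**Figure D2:**
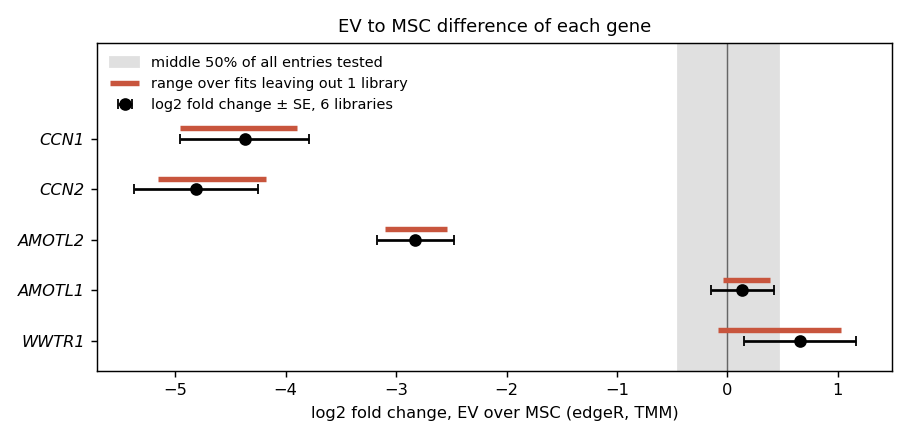
Log2 fold change of EVs over MSCs for each gene with its standard error (black), the range over the fits that each left out 1 of the 6 libraries (red) and the middle 50% of all 12392 entries tested (grey band, -0.45 to 0.47). CCN1, CCN2 and AMOTL2 lie far to the left of the band, AMOTL1 within it, and the ranges of AMOTL1 and WWTR1 cross 0.

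Within pigs, the difference of the CCN genes was largest in pig 2. CCN1 was 11.2-fold, 53.6-fold and 15.3-fold higher in MSCs than in EVs of pigs 1, 2 and 3. The corresponding ratios of CCN2 were 13.0, 75.6 and 18.8, in the same order of pigs. For AMOTL2 they were 7.03, 11.6 and 5.22, again largest in pig 2. AMOTL1 and WWTR1 shared another order, being lowest in EVs relative to MSCs in pig 1 and highest in pig 3. The EV to MSC ratio of AMOTL1 was 0.704, 1.16 and 1.68, and that of WWTR1 was 0.572, 1.49 and 2.81. With the pig as a block in the model, the log2 fold changes were -4.36 for CCN1, -4.69 for CCN2, -2.91 for AMOTL2, 0.15 for AMOTL1 and 0.44 for WWTR1.

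Levels of different genes were compared per length, in the deposited RPKM (reads scaled by gene model length and library size). In MSCs the order was CCN1 (83.3 ± 36.4 RPKM), CCN2 (78.2 ± 40.5), AMOTL2 (35.2 ± 5.49), AMOTL1 (3.36 ± 1.23) and WWTR1 (2.68 ± 0.698; SD, n = 3 each). CCN1 and CCN2 did not differ beyond their spread, and neither did AMOTL1 and WWTR1, whereas the lowest CCN2 library was above the highest AMOTL2 library and the lowest AMOTL2 library above the highest AMOTL1 library. In EVs all neighbors overlapped, in the order AMOTL2 (4.90 ± 1.57 RPKM), CCN1 (4.25 ± 2.72), WWTR1 (4.05 ± 2.45), AMOTL1 (3.66 ± 0.332) and CCN2 (2.93 ± 1.29; SD, n = 3 each). By mean RPKM among the 29658 entries, CCN1 ranked 198 in MSCs and 4520 in EVs, CCN2 217 and 5817, and AMOTL2 555 and 4015. AMOTL1 ranked 5130 and 5058, and WWTR1 ranked 5855 and 4699. The second CCN2 entry, at 0 reads, lies within the one used, so reads on their overlap may be missing from CCN2. Its RPKM may therefore be too low, which was not tested. The ranks of CCN2 and the ratios of CCN1 to CCN2 below carry the same limit.

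**Figure D3:**
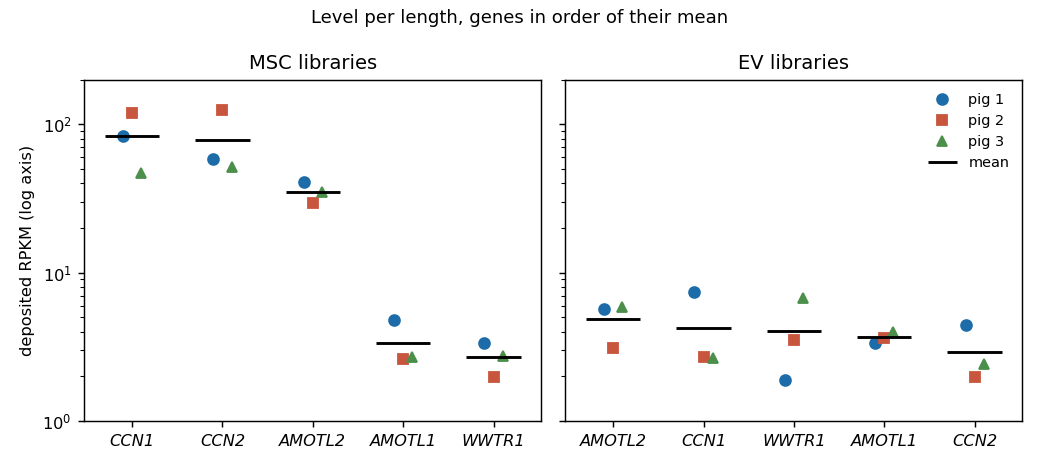
Deposited RPKM (log axis) of the 5 genes in the 3 MSC libraries (left) and the 3 EV libraries (right), with genes in order of their mean (black bar) and symbols marking the pigs. The genes span from 1.96 to 125 RPKM in MSCs and from 1.90 to 7.40 RPKM in EVs.

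Ratios within a library showed the same narrowing. The RPKM of AMOTL2 was 8.50, 11.4 and 13.0 times that of AMOTL1 in the MSCs of pigs 1, 2 and 3, and 1.72, 0.848 and 1.48 times in their EVs. The RPKM of CCN1 was 24.9, 60.9 and 17.1 times that of WWTR1 in MSCs, compared with 3.89, 0.763 and 0.397 times in EVs. The ratio of CCN1 to CCN2 was the steadiest of these ratios, at 1.44, 0.959 and 0.904 in MSCs and 1.68, 1.35 and 1.11 in EVs.

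The likeness of genes was measured as the root mean square difference between their log2 CPM profiles over the 6 libraries, each centered on its own mean, among 5495 other genes with a symbol and at least 10 CPM on average. Profiles centered in this way hold the EV to MSC difference, which was known when the genes were chosen. Genes with similar log2 fold changes thus tend to lie near each other, and nothing further is read from these distances. The gene most like CCN1 was CCN2, and the gene most like CCN2 was CCN1, at a distance of 0.32. TINAGL1, which encodes a secreted basement membrane protein, came next for CCN1 at 0.56 and lay at 0.76 from CCN2. ACTG2, a smooth muscle actin gene, lay at 0.67 from CCN1, 0.73 from CCN2 and 0.44 from AMOTL2. BYSL, a ribosome biogenesis gene, lay at 0.46 from AMOTL2. AMOTL2 itself lay at 0.98 from CCN1 and 1.08 from CCN2. AMOTL1 was nearest to METAP1 (0.08), AEBP2 (0.14) and NARS1 (0.14), and WWTR1 to FCHSD2 (0.19), IARS1 (0.21) and TNS1 (0.21), a focal adhesion gene. Between AMOTL1 and WWTR1 the distance was 0.49.

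The 5 genes differ in genomic span, which the choice by name did not use. The entries of CCN1 and CCN2 span 3.27 and 3.33 kb, that of AMOTL2 15.4 kb, that of AMOTL1 75.2 kb and that of WWTR1 144 kb, while the gene models counted are of 2428, 2376, 2496, 2886 and 1475 bases. Over all entries tested, the median log2 fold change was -0.26 for the 2601 entries of up to 5 kb, -0.15 for the 4083 entries of over 5 and up to 20 kb, 0.15 for the 4417 of over 20 and up to 100 kb, and 0.29 for the 1291 of over 100 kb. A log2 fold change below -2 was found in 1.61% of the entries of up to 5 kb in 0.759% of those of over 5 and up to 20 kb, in 0.747% of those of over 20 and up to 100 kb and in 0.775% of those of over 100 kb. The median was thus higher at longer spans over the whole table, whereas the share below -2 was nearly level beyond 5 kb. The part of span in the values of the 5 genes was not tested. A trend was removed on gene model length only, which is not span. With that trend removed, the log2 fold changes were -4.38 for CCN1, -4.83 for CCN2, -2.84 for AMOTL2, 0.09 for AMOTL1 and 0.71 for WWTR1.

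**Figure D4:**
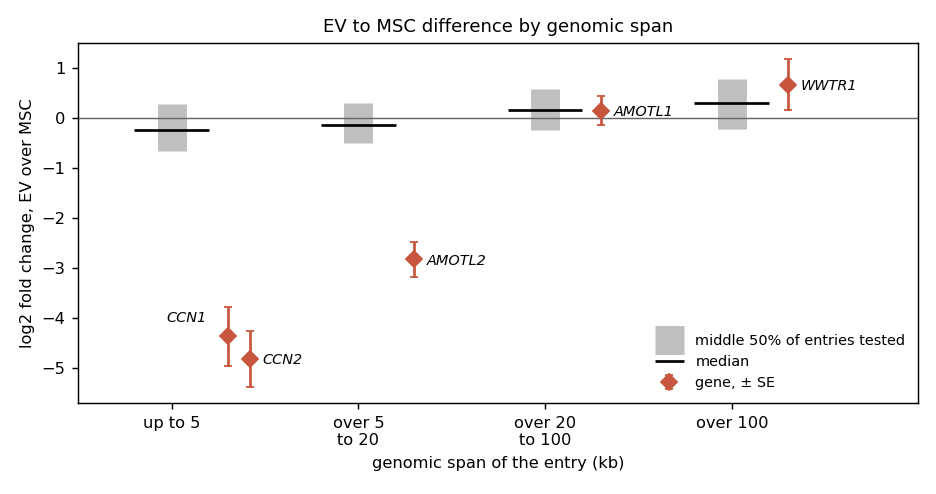
Log2 fold change of EVs over MSCs by genomic span of the entry in kb, with the median (black line) and the middle 50% (grey bar) of the entries tested in each class and the 5 genes with their standard errors (red). The class medians go from -0.26 to 0.29, and CCN1, CCN2 and AMOTL2 lie far below the bar of their class.

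The rest of the pathway was read from 5 lists of 68 genes, of which 52 had an entry and 42 could be tested. By the thresholds of the study, a fold change over 2 with an unadjusted p-value under 0.05, 1 of the 42 was higher in EVs (2.38%, against 5.55% of all entries tested) and 1 was lower (2.38%, against 3.57% of all entries tested), and 40 were not called. With the pig as a block, 5 were higher (8.01% of all entries were) and 1 was lower (5.17% of all entries were). With DESeq2, 3 were higher (6.29% of all entries were). No pathway gene (0 of 42) passed an adjusted p-value under 0.05 in the quasi-likelihood test of edgeR, adjusted by Benjamini-Hochberg, and neither did any of the 12392 entries (0% in each direction). An unadjusted p-value under 0.05 was reached by 6 of the 42 and by 1978 of all entries. The median log2 fold change of the 42 was 0.08, and it was -0.02 over all entries.

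Of the 20 other YAP/TAZ target genes, 14 had an entry and 11 were tested. AJUBA was the gene called lower, 9.09% of the 11 against 3.57% of all entries tested. AJUBA encodes a LIM protein that binds LATS kinases at cell junctions. Its reads numbered 299, 234 and 290 for the MSCs of pigs 1, 2 and 3, against 89, 41 and 32 for their EVs, so that each EV library held under 100 reads and each MSC library over 200. The log2 fold change was -2.33 (SE 0.41, edgeR adjusted p = 0.206), lower in EVs of all 3 pigs. With the pig as a block its adjusted p was 0.0305 from edgeR, in a fit where 0.605% of all entries were lower and 0.492% higher past that threshold, and DESeq2 also called it lower (adjusted p = 2.6e-05), as it did 1.5% of all entries. AXL, a receptor tyrosine kinase gene, drew 2533, 3327 and 2033 reads from MSCs against 1279, 1482 and 1752 from EVs, with a log2 fold change of -0.78 (SE 0.33, edgeR adjusted p = 0.308). The other 9 tested targets had log2 fold changes from -0.43 for FJX1 to 0.56 for TGFB2, and the median of the 11 was -0.34. F3 and IGFBP3 were below the filter, and ANKRD1, a further common readout of YAP/TAZ, was listed at 0 reads in every library. A second entry with the same start and end, named CARP, was also at 0, so the level of ANKRD1 could not be read. LATS2, ARHGEF17, FOXF2, GADD45A, NUAK2 and RBMS3 had no entry under those symbols.

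None of the 14 tested genes among the Hippo kinases and their upstream regulators passed the thresholds. Their median log2 fold change was 0.21, with 10 of the 14 above 0, as were 49.1% of all entries tested. SAV1, the scaffold of the STK3 and STK4 kinases, drew 464, 387 and 444 reads from the MSCs of pigs 1, 2 and 3, against 590, 757 and 668 from their EVs (log2 fold change 0.67, SE 0.22, edgeR adjusted p = 0.251). LATS1, the kinase that acts on YAP and TAZ directly, had 21.2 ± 12.8 CPM in MSCs and 44.5 ± 15.0 CPM in EVs (SD, n = 3 each), with only 74 reads in MSC replicate 2. Its log2 fold change of 1.07 (SE 0.53, edgeR adjusted p = 0.349) was 0.66 without that library. NF2, the merlin tumor suppressor gene upstream of LATS, had a log2 fold change of -0.27 (SE 0.21, edgeR adjusted p = 0.500).

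Among the TEAD transcription factors, through which YAP and TAZ reach DNA, TEAD2 drew 862, 1897 and 1146 reads from MSCs against 1119, 811 and 801 from EVs. Its log2 fold change was -0.53 (SE 0.38), that of TEAD3 -0.55 (SE 0.26) and that of TEAD4 -0.97 (SE 0.42), with adjusted p-values of 0.480, 0.340 and 0.313 from edgeR. Without MSC replicate 2, the log2 fold change of TEAD2 was -0.04 and that of TEAD3 -0.32, while TEAD4, which rested on 18 to 57 reads per library, was at -1.16 and past the unadjusted thresholds. TEAD1 was listed at 0 reads, but an entry named TEF1, which the RefSeq gene table gives as a synonym, covers nearly the same span on the same strand. This entry, looked up after the values were seen, drew 101, 21 and 58 reads from MSCs against 68, 90 and 101 from EVs, with a log2 fold change of 0.63 (SE 0.52, edgeR adjusted p = 0.530). The cofactor VGLL4 was tested (log2 fold change 0.39), and with all 6 libraries none of the 4 tested genes of this list passed the thresholds.

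The 7 tested partners of the angiomotins all had log2 fold changes above 0, from 0.41 to 1.25 with a median of 0.81. Over all entries tested, 49.1% were above 0. TNKS was the gene called higher, 14.3% of the 7 against 5.55% of all entries tested. Entries of longer span ran higher over the whole table. In this list, the entry of TNKS runs from 62933578 to 63096764, but that of RNF146 only from 39594720 to 39595802. The part of span in this list was not tested. TNKS and TNKS2 encode tankyrases, which ADP-ribosylate angiomotins, and RNF146 encodes the ubiquitin ligase that then marks them for degradation. TNKS drew 315, 111 and 229 reads from the MSCs of pigs 1, 2 and 3, against 346, 492 and 617 from their EVs, with every EV library highest. The log2 fold change was 1.25 (SE 0.41, edgeR adjusted p = 0.251), and it fell to 0.98 without MSC replicate 2 and 0.90 without EV replicate 3, where TNKS was no longer called. TNKS2 had a log2 fold change of 0.96 (SE 0.36, edgeR adjusted p = 0.276) and RNF146 of 0.81 (SE 0.27, edgeR adjusted p = 0.256), and each was higher in the EVs of every pig. Without MSC replicate 2, the log2 fold change was 0.66 for TNKS2 and 0.61 for RNF146. That library also held the fewest MSC reads of NEDD4L, ITCH and PALS1, but not of MAGI1. AMOT, the founding angiomotin gene, was listed at 0 reads in every library, with no other entry over it. Counting error alone allows up to 0.244 to 0.288 CPM at the depth of these libraries. Of the 4 EV marker genes checked, CD63 and CD81 were well read, but ITGB1, a broadly expressed integrin gene, stood at 1 to 3 reads per library and CD9 at 4 to 7, so an entry at or near 0 in this table need not bound the level of its transcript.

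**Figure D5:**
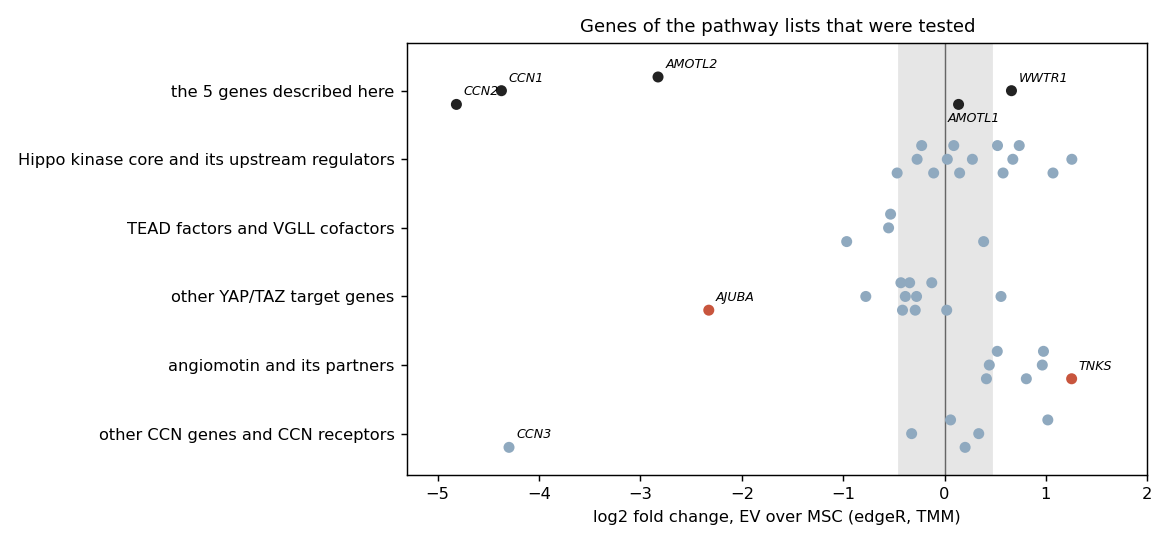
Log2 fold change of EVs over MSCs for the 5 genes described here (black) and for the 42 tested genes of the pathway lists (blue, or red where past a 2-fold change with an unadjusted p-value under 0.05), over the middle 50% of all entries tested (grey band). AJUBA and TNKS are in red, and CCN3 lies at -4.30 without passing the test.

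The values of 2 other CCN genes, CCN3 and CCN4, each turned with a single library. CCN3 (NOV) drew 3, 2161 and 9 reads from the MSCs of pigs 1, 2 and 3, against 2, 113 and 14 from their EVs, so that nearly all of its reads came from pig 2. Its log2 fold change of -4.30 (SE 2.26, edgeR adjusted p = 0.364) was 2.80 without MSC replicate 2. CCN4 (WISP1) drew 123, 389 and 333 reads from MSCs against 120, 408 and 1088 from EVs, and its log2 fold change of 1.02 (SE 0.83, edgeR adjusted p = 0.529) was -0.25 without EV replicate 3. CCN6 had at most 5 reads per library, and CCN5 had no entry. Of the receptors of CCN proteins, ITGAV, the integrin alpha-v gene, drew 1357, 539 and 1001 reads from MSCs against 844, 1006 and 1269 from EVs (log2 fold change 0.20, SE 0.35, edgeR adjusted p = 0.770). None of the 6 tested genes of this list passed the thresholds.

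The labelled cell type was checked against its markers. CD44, NT5E (CD73), ENG (CD105) and PDGFRB were read in all 6 libraries, with summed levels of the mesenchymal list from 900 to 2088 CPM in MSCs and 1274 to 1523 in EVs. THY1 (CD90) was listed at 0, while an entry that overlaps it had 49577 reads. Of the genes listed as marks of other cells, 2 were lower in EVs past the thresholds of the study, which 3.57% of all entries tested were. The tested genes numbered 2 in the smooth muscle and pericyte list and 1 each in the endothelial, leukocyte, adipocyte and platelet lists. These are too few for a share to be set against that of all entries. ACTA2, smooth muscle actin, drew 359, 286 and 431 reads from MSCs against 13, 5 and 39 from EVs (log2 fold change -4.10, SE 0.74, edgeR adjusted p = 0.206). In the fit blocked by pig, ACTA2 was at -4.47 on the log2 scale (edgeR adjusted p = 0.0116), and DESeq2 gave an adjusted p of 1.1e-06. The actin genes ACTBL2 (-3.50), ACTG2 (-3.47), ACTG1 (-2.03) and ACTB (-1.67) also had negative log2 fold changes. Whether ACTA2 stands for other cells here was not tested. In the smooth muscle and pericyte list, 2 of 4 genes were tested and ACTA2 was lower, CSPG4 was not called, MYH11 had 7 reads or fewer per library and RGS5 was at 0, with summed levels from 68.2 to 141 CPM in MSCs and 17.9 to 95.9 in EVs. PECAM1, an endothelial gene, drew 215, 111 and 114 reads from MSCs against 78, 20 and 31 from EVs (log2 fold change -1.71, SE 0.54, edgeR adjusted p = 0.249), while VWF was at 0 and KDR had 1 read in all. The endothelial list summed to 9.67 to 16.7 CPM in MSCs and 1.64 to 6.59 in EVs. The part of these cells in the differences of CCN1, CCN2 and AMOTL2 was not tested. Leukocyte, adipocyte and platelet lists had no gene past the thresholds. CD14 had 416 to 771 reads in every library, PTPRC 10 or fewer, ADIPOQ 1 in all, and PPBP and ITGA2B 0. LPL, of the adipocyte list, drew 231, 12 and 131 reads from MSCs against 293, 245 and 127 from EVs (log2 fold change 0.91, SE 0.78, edgeR adjusted p = 0.548). GP9, of the platelet list, had 9 to 33 reads per library. FABP4, PF4 and GP1BA had no entry, so these lists do not show that adipocyte or platelet transcripts were absent.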

How the data were processed

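RNA of MSCs and EVs from 3 pigs was read by Illumina sequencing. The library kit is given as a stranded total RNA kit in the labels and as another TruSeq kit in the study's methods, and whether counting used strand is not given in the sources used here. The authors aligned reads with TopHat and counted them with featureCounts (the processing notes also list HTSeq), and deposited raw counts and RPKM per entry. Deposited RPKM values had been scaled by gene model length and a library total that exceeds the reads counted on genes. Of 29661 entries, 3 that were shifted by a column were left out. Symbols came from the table (4336 entries) or from an annotation of Ensembl identifiers (11804 of 25322).

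Counts were fitted over the whole table with edgeR 4.0.16 in R 4.3.3 (TMM, filterByExpr, quasi-likelihood test, Benjamini-Hochberg adjustment, no block). Standard errors were the log2 fold change divided by the square root of F. Alternatives were other scalings, DESeq2 1.42.0, other filters, limma 3.58.1 on log2 RPKM after adding 1 or 0.1, the pig as a block, removal of the length trend, entries summed per symbol and omission of each library. The pairing comes from the pig labels, and deviations from the group means correlated at 0.251, 0.384 and 0.408 within pigs and at -0.364 to -0.0385 between pigs. Deviations from a mean cancel within each group, so positive values within pigs bring negative ones between pigs. The latter add no support of their own. On simulated data for this comparison, with 200 of 12392 entries changed, edgeR recovered 58% of 4-fold changes with 1 false call, and 94.5% of 16-fold changes with 8. The simulated counts varied by the trended dispersion alone, without variation particular to a gene or a pig. Recovery in the real libraries may therefore be lower. The genes and lists were chosen with earlier results of these data known. Named genes were the 6 genes, up to 5 called genes per list, fixed pathway genes and markers, and the 3 genes most like each (1 of which is not reported here), with SAV1, TNKS2, RNF146 and further list genes with extreme or unreadable values added after their values were seen. Small-RNA data were not used.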

Additional observations from a re-analysis of the deposited data

How the results depend on the processing

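CCN1, CCN2 and AMOTL2 were lower in EVs under all 18 alternatives tried for each. Of these, the sum of entries per symbol could not differ from the main fit. Only CCN2 had a second entry, and it held 0 reads. Leaving out 1 library at a time, the log2 fold change ranged from -4.96 to -3.90 for CCN1, -5.16 to -4.18 for CCN2, -3.10 to -2.54 for AMOTL2, -0.04 to 0.39 for AMOTL1 and -0.08 to 1.03 for WWTR1. Under the 12 other alternatives it ranged from -4.40 to -4.02 for CCN1, -4.85 to -4.27 for CCN2, -2.91 to -2.64 for AMOTL2, 0.09 to 0.17 for AMOTL1 and 0.36 to 0.71 for WWTR1, all within 1 SD of the replicates. The count of 3 genes without overlap was the same in unscaled CPM and in RPKM. Pathway genes called higher by the unadjusted threshold numbered 3 with DESeq2, 2 without a filter, 0 with limma on log2 RPKM plus 1, 3 with limma on log2 RPKM plus 0.1 and 5 with the pig as a replicate block (LATS1, TAOK1, TNKS, TNKS2 and ITCH), and ranged from 0 (EV replicate 3 left out) to 4 (MSC replicate 1 left out) over the omissions (without MSC replicate 2 it was 1, TGFB2 in place of TNKS). Those called lower numbered 1 to 2 when 1 library was left out. Of all 12392 entries tested, 688 were called higher in the main fit, 779 with DESeq2 and 992 with the pig as a block. With limma on log2 RPKM it was 233 after adding 1 and 696 after adding 0.1, and without a filter 886 of 18511. Over the omissions, 511 to 948 of all entries were called higher and 270 to 607 lower. Past the adjusted threshold, 1 pathway gene, AJUBA, was lower with DESeq2 and 1, again AJUBA, with the replicate block, and its adjusted p over the alternatives ranged from 2.6e-05 to 0.630. Besides AMOTL1 and WWTR1, whose ranges above cross 0, the sign turned for CCN3 without MSC replicate 2 (2.80) and for CCN4 without EV replicate 3 (-0.25). It also turned for ITGAV without MSC replicate 2 (-0.03) or EV replicate 3 (-0.11). Over the fits that left out 1 library, values ranged from -6.51 to 2.80 for CCN3, -0.25 to 1.503 for CCN4 and -0.11 to 0.44 for ITGAV. The cause was not tested. The replicates are 3 animals a group, and genes listed at 0 reads cannot be read as absent where another entry overlaps them.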
